A study of Homo sapiens with 38 samples.

Results

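Ribosome biogenesis genes encode the machinery that makes ribosomes. Of 38 such genes chosen by name, 37 were measured in both experiments, and BOP1 was not analysed here. RNA polymerase I transcribes the precursor of the ribosomal RNAs in the nucleolus. Small nucleolar ribonucleoproteins (snoRNPs) modify and help to cut that precursor, and large sets of assembly factors fold and trim it into the small and the large ribosomal subunit. The programme takes a large part of the resources of a growing cell, MYC is a known activator of many of its genes, and neuroblastomas driven by MYCN are known for high activity of it. By role, the measured genes are 6 of snoRNPs (NOP56, NOP58, FBL, DKC1, RRP9 and NOLC1), 7 of RNA polymerase I and nucleolar regulation (POLR1A, POLR1B, NCL, NPM1, DDX21, MYBBP1A and LYAR), 10 of small subunit assembly (NOP14, WDR43, WDR75, UTP15, UTP20, HEATR1, TBL3, BYSL, RRP12 and DDX10), and 14 of large subunit assembly (NOP2, NOP16, PES1, WDR12, WDR74, RRP1B, RRS1, NOC2L, NOC3L, NIP7, GNL3, DDX56, PPAN and LAS1L). The experiments held 15378 and 14820 genes in all.

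The libraries were made from polyadenylated RNA of SH-SY5Y, a human neuroblastoma cell line labelled with bone marrow as its tissue. The first experiment had 10 groups of 3 libraries. WT cells received FT671, a USP7 inhibitor, or its vehicle DMSO, both in the neural state only. Cells without p53 and USP7 (p53_USP7_DKO), without p53 and BCOR (p53_BCOR_DKO), without p53 alone (p53-KO) and WT cells were each taken in the neural and the undifferentiated state. Both double knockouts lack p53 as well, so p53-KO is what they are set against. USP7 removes ubiquitin from proteins, and BCOR belongs to a Polycomb complex of the noncanonical kind. The heterozygote experiment had 4 groups of 2 libraries, SHY USP7-het and SHY WT cells in both states. Neural cells had spent 10 days in differentiation medium with 10 µM retinoic acid. Dose and duration of FT671 and the number of clones behind each edited line are not given in the sources used here. The labels do not say that the libraries of a group came from separate cultures, so p-values measure the spread between these libraries, which may be technical.

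USP7 had 648, 665 and 709.8 normalized counts in neural p53_USP7_DKO cells, against 2870.2, 3016 and 2849 in neural p53-KO cells. It had 531, 577 and 379 in undifferentiated p53_USP7_DKO cells, against 3027, 3069 and 2975 in undifferentiated p53-KO cells. The targeted transcript was thus lower in every p53_USP7_DKO library. In the heterozygote it had 1835 and 1833 in neural SHY USP7-het cells, against 2917 and 2978 in neural SHY WT cells, and 1878 and 1854 in undifferentiated SHY USP7-het cells, against 3188 and 3157 in undifferentiated SHY WT cells. BCOR had 702, 854 and 771 in neural p53_BCOR_DKO cells, against 4361, 4334 and 4070.3 in neural p53-KO cells, and 1054, 1041 and 994 in undifferentiated p53_BCOR_DKO cells, against 3855, 3717 and 3244 in undifferentiated p53-KO cells. No library of a knockout overlapped its p53-KO group, and the transcript remained detectable. Sympathoadrenal markers were present, with DBH, an enzyme of noradrenaline synthesis, between 212 and 48964 normalized counts in the first experiment, while TH was at or near 0 in most groups. Depth ran from 16149022 to 17946790 reads in genes. The third undifferentiated p53_USP7_DKO library stood apart, above both others of its group for 20 of the 37 genes and below both for 17, with ratios to their mean from 0.729 (TBL3) to 1.9 (NPM1). The third undifferentiated p53-KO library held 0.116% of its reads in 15 skeletal muscle markers, against 0.00935% and 0.00933% in the others of its group. Results that use either library are given below with and without them where a count of called genes changed by over 1.5 times.

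The E-box CACGTG, the DNA sequence that MYC binds, was searched for in the promoters, taken as the 250 bases before to the 50 bases after the gene's start in RefSeq (GRCh38.p14). The motif reads the same on both strands. Of the 38 genes 32 had a promoter in the table, and 10 of those (31.2%) held the motif, against 2030 of all 27305 promoters (7.4%) and 1407 of 15843 promoters of protein-coding genes (8.9%). Among 110 promoters of other genes of the pathway 30 held it (27.3%). By role the 10 of the 38 genes with the motif were 2 snoRNP, 1 RNA polymerase I and nucleolar regulation, 4 small subunit and 3 large subunit genes. A match is a description of these letters and not a binding site. Stretches around the motif are shown for the gene of each role whose motif lies nearest to the start and for NOP2, whose level differed most after BCOR loss in neural cells. Each is printed 5′ to 3′ on the gene's strand with the motif in capitals.
RRP9: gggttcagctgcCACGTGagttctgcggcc
MYBBP1A: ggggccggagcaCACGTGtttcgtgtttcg
WDR43: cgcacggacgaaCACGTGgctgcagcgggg
PES1: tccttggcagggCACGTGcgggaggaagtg
NOP2: aggtccggattgCACGTGgagggccgc

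In GRCh38.p14 these stretches lie at RRP9 (chr3:51941892-51941921, minus strand, motif beginning 5 bases before the start), MYBBP1A (chr17:4555340-4555369, minus strand, 27 bases after it), WDR43 (chr2:28894658-28894687, plus strand, 3 bases after it), PES1 (chr22:30591880-30591909, minus strand, 13 bases after it) and NOP2 (chr12:6568242-6568268, minus strand, 35 bases after it, at the end of the window).

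As a share of all reads in genes, the 37 genes took 0.309% to 0.321% in the WT FT671 neural libraries and 0.692% to 0.715% in the WT undifferentiated libraries, which marks the lowest and the highest group of the first experiment. They took 0.413% to 0.417% in neural and 0.373% to 0.391% in undifferentiated p53_BCOR_DKO cells, the one genotype where the neural libraries were the higher ones. In p53_USP7_DKO cells the share was 0.363% to 0.372% in the neural and 0.483% to 0.518% in the undifferentiated state. In p53-KO cells it was 0.344% to 0.358% in the neural and 0.568% to 0.618% in the undifferentiated state. The shares of the neural and undifferentiated libraries did not overlap within any of these genotypes. In RNA from whole cultures, fewer cells of a type and less RNA per cell cannot be told apart.

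**Figure D1:**
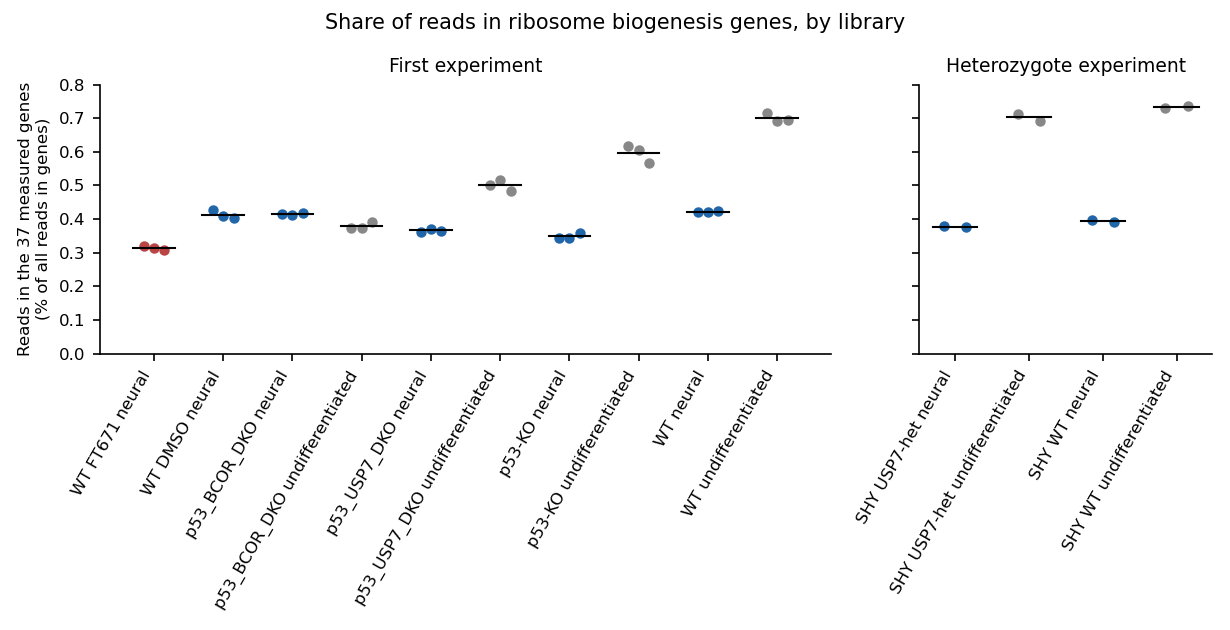
Share of all reads in genes (%, vertical axis) held by the 37 ribosome biogenesis genes in each library of both experiments, by group; points are libraries and lines are group means, with neural libraries in blue, FT671 in red and undifferentiated ones in grey. The WT FT671 neural libraries lie lowest (0.309% to 0.321%), and p53_BCOR_DKO is the genotype in which neural libraries lie above undifferentiated ones.

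Neural differentiation of WT cells lowered nearly the whole programme. Of the 37 genes 36 fell and none rose, where 65.7% of all 15351 genes tested were called and 33.4% fell (limma on log2 normalized counts, Benjamini-Hochberg adjusted p below 0.05). DDX10, an RNA helicase of small subunit assembly, was the exception, at log2 -0.16 ± 0.09. The median log2 fold change was -0.87 for these genes and -0.01 for all genes. The fall reached every role, with medians of -0.85 for snoRNP, -0.80 for RNA polymerase I and nucleolar regulation, -0.76 for small subunit and -0.90 for large subunit genes. Of 126 other measured genes of the pathway, 95 fell, 1 rose and 30 were not called. Those that fell include RUVBL1, a helicase needed for snoRNP assembly (log2 -1.11 ± 0.06), and DDX54, a nucleolar helicase (log2 -1.11 ± 0.10). At unadjusted p below 0.05, 36 members differed.

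Among the snoRNP genes, NOP56 had 2311, 2314 and 2315 normalized counts in neural WT cells, against 4667, 4444 and 4205 in undifferentiated WT cells (log2 -0.94 ± 0.05). NOP56 is a core protein of the box C/D particles that guide methylation of ribosomal RNA, and all 3 neural libraries lay below every undifferentiated one. Among the regulators, LYAR had 302, 271 and 272 normalized counts in neural, against 701, 744 and 676 in undifferentiated WT cells (log2 -1.33 ± 0.11), the largest change of the 37. LYAR is a nucleolar zinc finger protein, and MYBBP1A, a nucleolar regulator of transcription, fell by 1.01 on the log2 scale. Of small subunit factors, RRP12 had 1745, 1759 and 1718 normalized counts in neural, against 3854, 3697 and 3693 in undifferentiated WT cells (log2 -1.11 ± 0.08). RRP12 takes part in export and late maturation of the small subunit, and its groups did not overlap. Of large subunit factors, which include the nucleolar complex proteins NOC2L and NOC3L, NOC2L had 2255, 2398 and 2384 normalized counts in neural, against 5491, 5051 and 5307 in undifferentiated WT cells (log2 -1.17 ± 0.07), and GNL3 had 1109, 1109 and 1175 normalized counts in neural, against 2138, 2355 and 2309 in undifferentiated WT cells (log2 -1.0 ± 0.10). GNL3, or nucleostemin, is a GTPase of large subunit assembly known from proliferating and stem cells. NOP14 and WDR43, both of the small subunit processome, fell by 1.11 and 1.08 on the log2 scale.

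The same contrast could be read in separate libraries. In SHY WT cells of the heterozygote experiment all 37 genes fell, where 79.3% of 14820 genes were called and 39.6% fell, with a median of -1.04. The change of LYAR was again the largest, with 250.3 and 248 normalized counts in neural and 804 and 838 in undifferentiated SHY WT cells (log2 -1.71 ± 0.09). FBL, the methyltransferase fibrillarin, followed, with 1178 and 1003 in neural and 3172 and 3097 in undifferentiated SHY WT cells (log2 -1.53 ± 0.06). The states did not overlap in either gene. In SHY USP7-het cells 36 fell, where 76.4% of all genes were called and 38.2% fell, and LAS1L, an endonuclease that cuts a spacer of the precursor, was not called (log2 -0.03 ± 0.05). In p53-KO cells all 37 fell, where 69.0% of all genes were called and 33.5% fell, with a median of -0.85 and GNL3 (-1.26), LYAR (-1.20) and DKC1 (-1.10), the pseudouridine synthase dyskerin, in front. Of the 126 other pathway genes 117 fell and 2 rose in SHY WT cells, and 98 fell and 1 rose in p53-KO cells.

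In p53_USP7_DKO cells the median fall was smaller. There 30 genes fell and 1 rose, where 65.5% of all genes were called, 31.6% downward and 33.9% upward, and the median was -0.50. DKC1 (-0.95), DDX21 (-0.92), an RNA helicase that acts with RNA polymerase I, and NOP16 (-0.89) fell most. NOP2, a methyltransferase of the large subunit RNA, rose: 2668, 2997 and 2925 normalized counts in neural, against 2517, 2564 and 2147 in undifferentiated p53_USP7_DKO cells (log2 0.25 ± 0.07, adjusted p = 0.00153 in limma). The 6 genes not called were MYBBP1A, POLR1A, POLR1B, TBL3, RRP1B and LAS1L. Fitting only these groups left NOP2 uncalled. Without the third undifferentiated library the log2 fold changes of DDX10 (-0.09), NOC3L (-0.05) and WDR75 (-0.08) lost their calls.

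In p53_BCOR_DKO cells the programme went the other way or did not pass the test. Of the 37 genes 19 rose, where 57.1% of all genes were called, 27.0% upward and 30.1% downward. DDX21 fell (log2 -0.19 ± 0.05), and 17 were not called. After rescaling by trimmed mean (TMM) factors, 25 rose, none fell, and calls over all genes were 57.5% upward against 47.3% before, while the median of all genes moved from 0.00 to 0.09. NOP2 had 3743, 3849 and 3988 normalized counts in neural, against 2494, 2303 and 2433 in undifferentiated p53_BCOR_DKO cells (log2 0.68 ± 0.07). RRP1B had 1895, 1998 and 2125 normalized counts in neural, against 1388, 1295 and 1289 in undifferentiated p53_BCOR_DKO cells (log2 0.60 ± 0.08). RRP1B is a nucleolar protein of large subunit assembly, and in both genes every neural library lay above every undifferentiated one. POLR1A, the catalytic subunit of RNA polymerase I, rose by 0.45 and LAS1L by 0.42 on the log2 scale. Among the other pathway genes 53 rose, 8 fell and 65 were not called. GAR1, a protein of the box H/ACA particles, rose (log2 0.99 ± 0.22).

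**Figure D2:**
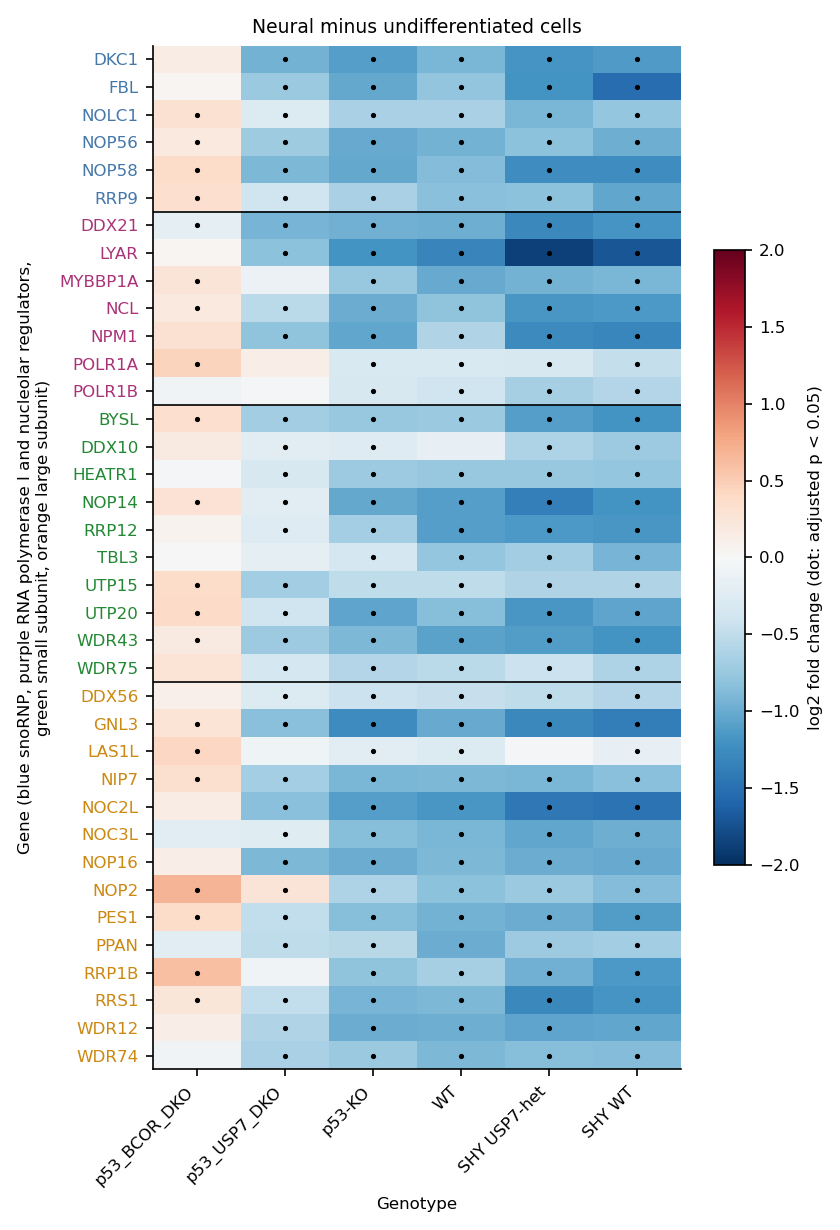
Log2 fold change of neural minus undifferentiated cells (colour, blue lower and red higher in neural cells) for each of the 37 genes (rows, coloured by role) in each genotype (columns); dots mark an adjusted p below 0.05. Columns of WT, p53-KO, SHY WT and SHY USP7-het cells are blue almost throughout, the p53_USP7_DKO column is paler, and the p53_BCOR_DKO column is mostly pale red, with NOP2 and RRP1B darkest.

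Tested as a difference between genotypes, the effect of differentiation was higher in p53_BCOR_DKO than in p53-KO cells for 36 of 37 genes, where 63.8% of all genes were called and 29.3% had a higher effect, with a median difference of 1.09 on the log2 scale. PPAN was the one not called. The largest differences were those of GNL3 (1.53 ± 0.14), UTP20 (1.44 ± 0.09) and RRP1B (1.40 ± 0.11). Between p53_USP7_DKO and p53-KO cells the effect was higher for 20 genes and lower for none, where 42.1% of all genes were called, 20.9% higher and 21.2% lower, with NOP2 (0.87 ± 0.09), NOP14 (0.81 ± 0.14) and RRP1B (0.73 ± 0.11) in front. Without the third undifferentiated libraries of p53_USP7_DKO and p53-KO, 31 differed. A fit of only the groups compared called fewer of the 37 than the main fit, a share near the 30% that it called of all genes. Between p53-KO and WT cells RRP12 (0.43 ± 0.12) and TBL3 (0.42 ± 0.13) differed, both higher in p53-KO, where 18.1% of all genes were called, 10.2% higher and 7.87% lower. Without the third undifferentiated p53-KO library TBL3 stood at 0.34 and was not called. By point estimate 35 of 37 genes had their lowest effect of these 3 edited lines in p53-KO, a middle one in p53_USP7_DKO and the highest in p53_BCOR_DKO, and these estimates share one fitted spread.

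Among the other measures, only proliferation genes and mean MYC levels differed between states in the direction of the ribosome biogenesis share in every genotype below. The MYC family list did so except in p53_USP7_DKO cells, where its ranges overlapped. The sympathoadrenal list was higher in neural WT and p53-KO cells, where the ribosome biogenesis share was lower. The fibroblast and endothelium list was likewise higher in neural WT and p53_USP7_DKO cells. In neural and undifferentiated cells, 12 proliferation genes (DNA replication and mitosis genes such as MCM2, MKI67 and CDK1) took 0.339% to 0.348% and 0.517% to 0.530% of reads in WT, 0.220% to 0.230% and 0.471% to 0.504% in p53-KO, 0.139% and 0.350% to 0.361% in p53_USP7_DKO, and 0.218% to 0.223% and 0.172% to 0.185% in p53_BCOR_DKO. The proliferation share was therefore higher in the neural state in p53_BCOR_DKO cells only among these 4 genotypes. MYC averaged 284 ± 46.0 normalized counts in neural and 1793 ± 61.7 in undifferentiated WT cells (SD, n = 3 here and below). It averaged 124 ± 14.1 and 1008 ± 114 in neural and undifferentiated p53-KO cells, 226 ± 12.4 and 696 ± 99.4 in p53_USP7_DKO, and 659.9 ± 55.3 and 564 ± 21.9 in p53_BCOR_DKO cells. The MYC family list (MYC, MYCN, MYCL and MAX) took 0.00832% to 0.00888% of reads in neural and 0.01501% to 0.0164% in undifferentiated WT cells. In the same order it took 0.00763% to 0.00781% and 0.01031% to 0.01105% in p53-KO cells. It took 0.00729% to 0.00776% and 0.00771% to 0.00961% in p53_USP7_DKO, and 0.01007% to 0.01069% and 0.00952% to 0.00968% in p53_BCOR_DKO cells. The fibroblast and endothelium list (10 of 12 genes measured in the first experiment) took 0.720% to 0.728% in neural and 0.366% to 0.386% in undifferentiated p53_BCOR_DKO cells, against 0.0692% to 0.0727% and 0.0721% to 0.0732% in p53-KO cells. It took 0.191% to 0.192% in neural and 0.0817% to 0.0900% in undifferentiated p53_USP7_DKO cells, and 0.163% to 0.207% and 0.142% to 0.145% in WT cells, so it was lower in p53-KO than in WT and higher in both double knockouts than in p53-KO cells. The 10 sympathoadrenal markers took 1.44% to 1.64% in neural and 0.276% to 0.285% in undifferentiated p53_BCOR_DKO cells, 0.136% to 0.148% and 0.168% to 0.262% in p53_USP7_DKO, 0.676% to 0.708% and 0.375% to 0.389% in p53-KO, and 0.551% to 0.570% and 0.356% to 0.380% in WT cells. The sympathoadrenal ranges of undifferentiated p53-KO and WT cells overlapped, and those of the other losses in the same state did not. The part of these measures in the results was not tested.

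Loss of p53 lowered part of the programme, by small amounts. In undifferentiated cells 18 of 37 genes fell and none rose, where 22.2% of all genes were called and 10.1% fell, with a median of -0.18. RRP12 had 2878, 2921 and 2432 normalized counts in undifferentiated p53-KO cells, against 3854, 3697 and 3693 in undifferentiated WT cells (log2 -0.45 ± 0.08), and PPAN had 271, 254 and 203 normalized counts in p53-KO, against 360.5, 296 and 329 in WT cells (log2 -0.44 ± 0.11). RRP12 showed no overlap between the groups. Without the third p53-KO library 9 of 37 genes were called, near the 22.2% of all genes in the full fit. Without the first WT library 11 were called. The shares of all genes in these smaller fits are not given here. In neural cells 13 fell and 1 rose, where 29.8% of all genes were called, 12.0% downward and 17.8% upward. NCL had 11517, 10657 and 12483 normalized counts in neural p53-KO cells, against 16571, 16427 and 15227 in neural WT cells (log2 -0.48 ± 0.08). NCL, or nucleolin, is an abundant nucleolar protein that binds the ribosomal genes and precursor. WDR43 rose (log2 0.21 ± 0.07), and the 20 tested protein-coding genes on each side of it had a median of at least 0.3. Of 126 other pathway genes 23 fell and 1 rose in undifferentiated cells, and 20 fell and 2 rose in neural cells.

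BCOR loss went with lower levels of most of these genes in one state and higher levels in the other. In undifferentiated p53_BCOR_DKO cells 29 of 37 genes fell and 3 rose, where 69.4% of all genes were called, 33.7% downward and 35.6% upward, with a median of -0.64. All 6 snoRNP genes fell (median -0.94). NOP56 had 1934, 1831 and 2092 normalized counts in undifferentiated p53_BCOR_DKO cells, against 3998, 3882 and 3925 in undifferentiated p53-KO cells (log2 -1.01 ± 0.05), and DKC1 had 1539, 1632 and 1801 normalized counts in p53_BCOR_DKO, against 3502, 3263 and 3057 in p53-KO cells (log2 -0.98 ± 0.07). RRP9, which binds the snoRNA that starts processing of the small subunit RNA, fell by 0.97 on the log2 scale. Of small subunit factors 5 fell and 5 were not called, the uncalled ones being DDX10, HEATR1, TBL3, UTP15 and WDR75. UTP20 had 1028, 1111 and 1090.4 normalized counts in undifferentiated p53_BCOR_DKO, against 2218, 2119 and 2078 in undifferentiated p53-KO cells (log2 -0.99 ± 0.06), with no overlap. NOP2 (0.36), NOC3L (0.25) and POLR1B (0.19) rose. Of the 126 other pathway genes 86 fell, 7 rose and 33 were not called. MRTO4, a factor of the large subunit stalk, fell (log2 -1.36 ± 0.09).

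In neural p53_BCOR_DKO cells 31 of 37 genes rose and LAS1L fell (log2 -0.27 ± 0.07), where 62.3% of all genes were called, 29.4% upward and 32.9% downward, with a median of 0.44. NOP2 had 3743, 3849 and 3988 normalized counts in neural p53_BCOR_DKO cells, against 1220.2, 1188 and 1256 in neural p53-KO cells (log2 1.66 ± 0.07). LYAR had 468, 418 and 454 normalized counts in neural p53_BCOR_DKO, against 226, 222 and 249.7 in neural p53-KO cells (log2 0.94 ± 0.11). NOC3L had 1028, 966 and 941 normalized counts in neural p53_BCOR_DKO, against 530.0, 533 and 508 in neural p53-KO cells (log2 0.90 ± 0.10). In these genes no library of one group reached the other group. WDR75, a processome factor needed for transcription of the precursor, rose by 0.77, and WDR12, a partner of PES1, by 0.65 on the log2 scale. POLR1A, PPAN, RRP12, RRP9 and DDX56 were not called. Of the 37 genes 23 fell in the undifferentiated and rose in the neural state, 3 rose in both and LAS1L fell in both. Among the other pathway genes 79 rose and 1 fell. EMG1, a methyltransferase of the small subunit RNA, rose most of them (log2 1.80 ± 0.15). It lies on chromosome 12, as NOP2 does, and shares 30.7% of its exon bases with LPCAT3 on the opposite strand.

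USP7 loss gave a more divided pattern. In undifferentiated p53_USP7_DKO cells 20 of 37 genes fell and 2 rose, where 57.3% of all genes were called, 28.4% downward and 28.9% upward, with a median of -0.21. TBL3 had 512, 467 and 357 normalized counts in undifferentiated p53_USP7_DKO cells, against 949, 937 and 792 in undifferentiated p53-KO cells (log2 -1.01 ± 0.09). LAS1L had 1119, 1129 and 995 normalized counts in undifferentiated p53_USP7_DKO, against 2094, 2117 and 1725 in undifferentiated p53-KO cells (log2 -0.87 ± 0.07). RRP1B fell by 0.73 and NOP14 by 0.57 on the log2 scale, and the groups did not overlap in any of these 4 genes. NOP2 (0.36) and UTP15 (0.36) rose, the UTP15 groups overlapping. Without the third libraries of both groups 1 rose and 25 fell, with UTP15 at 0.16 and not called, and a fit of these groups alone called 12 of the 37 and 31.5% of all genes. In neural p53_USP7_DKO cells 9 rose and 4 fell, where 63.7% of all genes were called, 30.7% upward and 33.0% downward. NOP2 had 2668, 2997 and 2925 normalized counts in neural p53_USP7_DKO cells, against 1220.2, 1188 and 1256 in neural p53-KO cells (log2 1.23 ± 0.07). NOC3L had 963, 886 and 809 normalized counts in neural p53_USP7_DKO, against 530.0, 533 and 508 in neural p53-KO cells (log2 0.75 ± 0.10). HEATR1, a processome scaffold, rose by 0.52 on the log2 scale. TBL3 had 373, 403 and 395 normalized counts in neural p53_USP7_DKO, against 754, 668 and 674 in neural p53-KO cells (log2 -0.84 ± 0.09). LAS1L fell by 0.74, WDR43 by 0.20 and DKC1 by 0.19. A fit of these groups alone called 22 of the 37 and 71.9% of all genes. Of 126 other pathway genes 36 fell and 12 rose in the undifferentiated state, with UBTF, a transcription factor for RNA polymerase I, at log2 -0.80 ± 0.09, and 29 rose and 20 fell in the neural state.

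**Figure D3:**
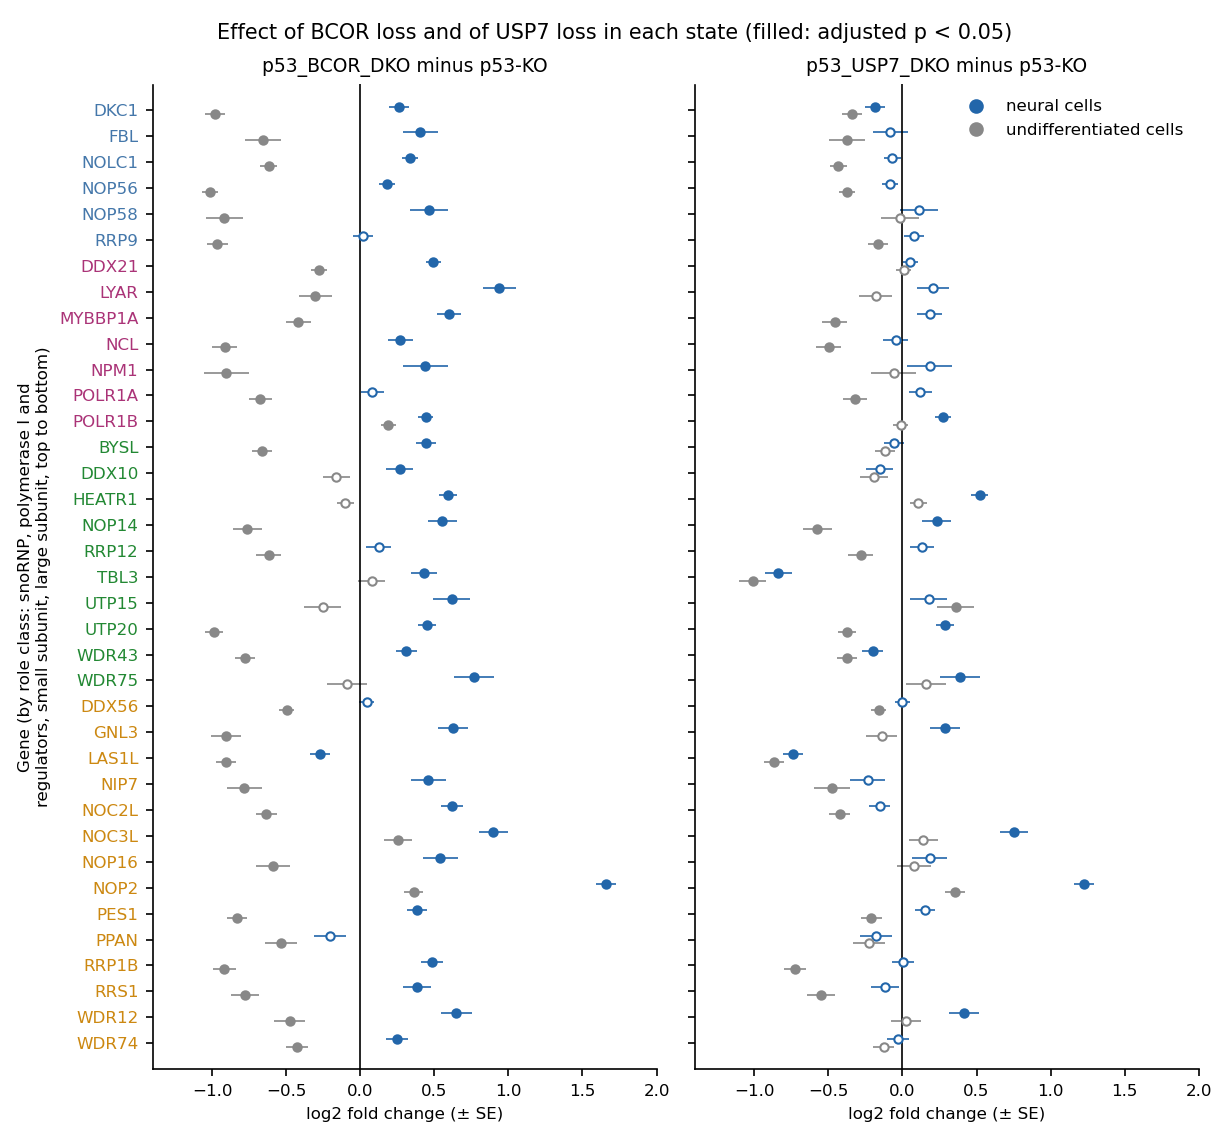
Log2 fold change ± SE (horizontal axis) of each of the 37 genes (rows, by role) in p53_BCOR_DKO minus p53-KO cells (left) and p53_USP7_DKO minus p53-KO cells (right); blue is neural, grey is undifferentiated, and filled points have an adjusted p below 0.05. With BCOR loss most grey points lie left of 0 and most blue points right of it, with NOP2 farthest right, while with USP7 loss TBL3 and LAS1L lie left in both states and NOP2 lies right in both.

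Around NOP2 and TBL3, most neighbouring genes had fold changes in the same direction as the gene itself. Among the 20 tested protein-coding genes on each side of TBL3 on chromosome 16, the median log2 fold change with USP7 loss was -0.93 (3 of 40 above 0) in neural and -1.0 (4 of 40 above 0) in undifferentiated cells, against 0.04 and 0.04 with BCOR loss. Around NOP2 on chromosome 12 it was 0.70 (32 of 40 above 0) in neural and 0.39 (29 of 40 above 0) in undifferentiated cells with USP7 loss, and 1.21 (34 of 40 above 0) and 0.34 (28 of 40 above 0) with BCOR loss. LAS1L, on chromosome X, had neighbours at -0.21 and 0.01 with USP7 loss in neural and undifferentiated cells. Neighbours of UTP20 stood at 0.40 with USP7 loss and 0.48 with BCOR loss in undifferentiated cells, where UTP20 itself fell. In undifferentiated cells 5 of the 37 genes had a neighbour median of at least 0.3 in size with USP7 loss and 5 with BCOR loss, and in neural cells 5 and 2. With USP7 heterozygosity none did in either state. With p53 loss WDR43 and RRP9 did in neural cells, the highest median being 0.32, and none did in undifferentiated cells. WDR75 had neighbours at 0.54 with USP7 loss and 0.41 with BCOR loss in neural cells, and NIP7 at -0.45 with USP7 loss in neural cells and -0.62 and -0.46 with USP7 and BCOR loss in undifferentiated cells. UTP15 had neighbours at 0.33 with USP7 loss in undifferentiated cells. DDX10 with USP7 loss in neural cells and POLR1B with BCOR loss in undifferentiated cells also had a neighbour median of at least 0.3 in size. Medians of 0.3 or more in size also occurred between groups of the same line. They reached 0.48 in size, below those around TBL3 with USP7 loss. Neighbours of NOP2 stood at 0.48 for differentiation of p53_BCOR_DKO cells, and those of WDR75 at 0.44 with FT671. For differentiation of WT cells RRP1B had neighbours at -0.38 and LAS1L at 0.38. DMSO against untreated neural WT cells gave 0 such genes. The number of copies of these stretches in each line was not measured. Its part in the values of NOP2, TBL3, WDR75, NIP7, UTP15 and UTP20 was not tested. The same holds for DDX10, POLR1B, WDR43, RRP9 and, among the other pathway genes, EMG1 on chromosome 12. The neighbour check was chosen after the values were seen. Of exon bases in GENCODE, 70.9% of NOP2 and 83.2% of PPAN are shared with another transcript unit on the same strand. On the opposite strand the shares are 24.0% for TBL3, 23.9% for HEATR1 and 30.7% for EMG1. Whether counting used strand is not given in the sources used here, so reads of these genes and their partners may be mixed. NPM1 has processed pseudogenes, which makes its counts less certain.

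**Figure D4:**
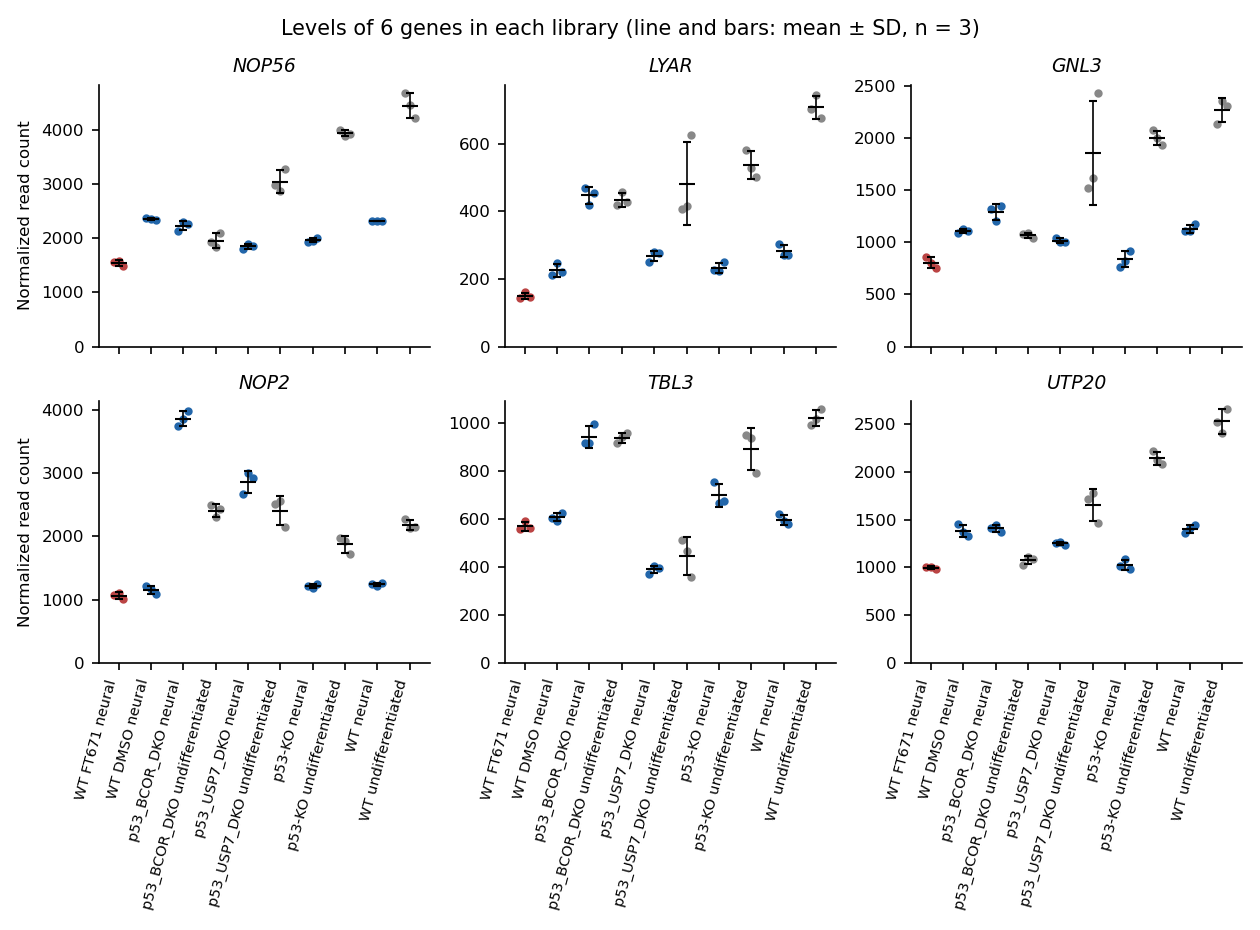
Normalized counts (vertical axes, from 0) of NOP56, LYAR, GNL3, NOP2, TBL3 and UTP20 in every library of the first experiment, by group, with the mean and SD (n = 3 each). NOP2 is highest in neural p53_BCOR_DKO cells (3860.1 ± 123), TBL3 is lowest in both p53_USP7_DKO groups, and the other 4 genes are highest in undifferentiated WT cells.

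Set directly against each other, the double knockouts differed in opposite directions in the neural and the undifferentiated state. In neural cells 28 of 37 genes were lower in p53_USP7_DKO than in p53_BCOR_DKO and none was higher, where 60.9% of all genes were called and 28.6% were lower. NOC2L had 1902, 1965 and 2031 normalized counts in neural p53_USP7_DKO cells, against 3194, 3358 and 3545 in neural p53_BCOR_DKO cells (log2 -0.77 ± 0.07). NIP7 had 644, 579 and 618 normalized counts in neural p53_USP7_DKO, against 1029, 956 and 988 in neural p53_BCOR_DKO cells (log2 -0.69 ± 0.12). TBL3 was lower by 1.27 on the log2 scale. At unadjusted p below 0.05, 29 differed. After TMM rescaling 43.0% of calls over all genes were upward, against 53.1% before. In undifferentiated cells 27 were higher in p53_USP7_DKO and 2 lower, where 65.2% of all genes were called, 32.2% higher and 33.0% lower. NOP58 had 1617, 1769.9 and 3063 normalized counts in undifferentiated p53_USP7_DKO cells, against 1113, 1064 and 1137 in undifferentiated p53_BCOR_DKO cells (log2 0.90 ± 0.13). The third p53_USP7_DKO library was the highest, and the others also lay above every p53_BCOR_DKO library. NOP58 is a partner of NOP56 in the box C/D particles. RRP9 was higher by 0.80, and TBL3 (-1.09) and POLR1B (-0.20) were the lower ones. A fit of these groups alone called 15 of the 37 and 42.5% of all genes. Of the 126 other pathway genes 65 were lower and 0 higher in neural cells, and 78 were higher and 6 lower in undifferentiated cells.

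Neural WT cells treated with FT671 had lower levels of most ribosome biogenesis genes than those treated with DMSO. Of the 37 genes 24 fell and none rose, where 65.1% of all genes were called and 32.1% fell, with a median of -0.30; all 6 snoRNP genes, 5 of 7 regulators, 4 of 10 small subunit and 9 of 14 large subunit genes were among them. DKC1 had 1052, 1081 and 1113 normalized counts in WT FT671 neural cells, against 1818, 1853 and 1776 in WT DMSO neural cells (log2 -0.75 ± 0.07). NOC2L had 1583, 1563 and 1589.7 normalized counts in FT671-treated, against 2649, 2449 and 2469 in DMSO-treated cells (log2 -0.68 ± 0.07). NCL had 11217, 11085 and 10169 normalized counts in FT671-treated, against 17661, 16428 and 14967 in DMSO-treated cells (log2 -0.59 ± 0.08). No FT671 library reached a DMSO library in these genes. DDX10, which differentiation of WT cells had left uncalled, fell by 0.62 on the log2 scale. At unadjusted p below 0.05, 25 members differed. Of the 126 other pathway genes 62 fell and 7 rose, with POLR1D, a small subunit of RNA polymerases I and III, at log2 0.48 ± 0.14. DMSO against untreated neural WT cells called 1 of 37, POLR1B (log2 -0.19 ± 0.05), where 8.7% of all genes were called, 4.33% upward and 4.38% downward.

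Alongside, proliferation genes took 0.0917% to 0.0947% of reads with FT671, against 0.326% to 0.328% with DMSO. MYC had 70.8, 73.6 and 85.8 normalized counts with FT671, against 216, 172 and 166 with DMSO. The MYC family list took 0.00663% to 0.00721% of reads with FT671, against 0.00738% to 0.0079% with DMSO. Mitochondrial genes took 10.3% to 11.5% of reads with FT671, against 5.28% to 5.89% with DMSO, and the fibroblast and endothelium list 0.378% to 0.391%, against 0.203% to 0.226%. The sympathoadrenal list took 0.203% to 0.215% with FT671, against 0.561% to 0.574% with DMSO. USP7 itself had 2384, 2422 and 2411 normalized counts with FT671, against 3077, 3031 and 3007 with DMSO. Their part in the fall of the 37 genes was not tested.

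In neural cells the inhibitor and the knockout had different effects on most of these genes. The FT671 effect in WT cells lay below the effect of USP7 loss in p53-KO cells for 26 of 37 genes and above it for TBL3 (0.75 ± 0.13), where 43.3% of all genes were called, 19.6% below and 23.7% above. The largest difference was that of NOP2 (-1.34 ± 0.09), which stood at log2 -0.12 ± 0.07 with FT671 and 1.23 ± 0.07 with USP7 loss. LYAR differed by -0.79 ± 0.16. Of the 24 genes that fell with FT671, 3 rose, 3 fell and 18 were not called with USP7 loss. FT671 acted in cells with p53 and the knockout was made in cells without it, so the presence of p53 and the way USP7 was removed cannot be told apart. Of the 126 other pathway genes 56 lay below and 3 above.

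**Figure D5:**
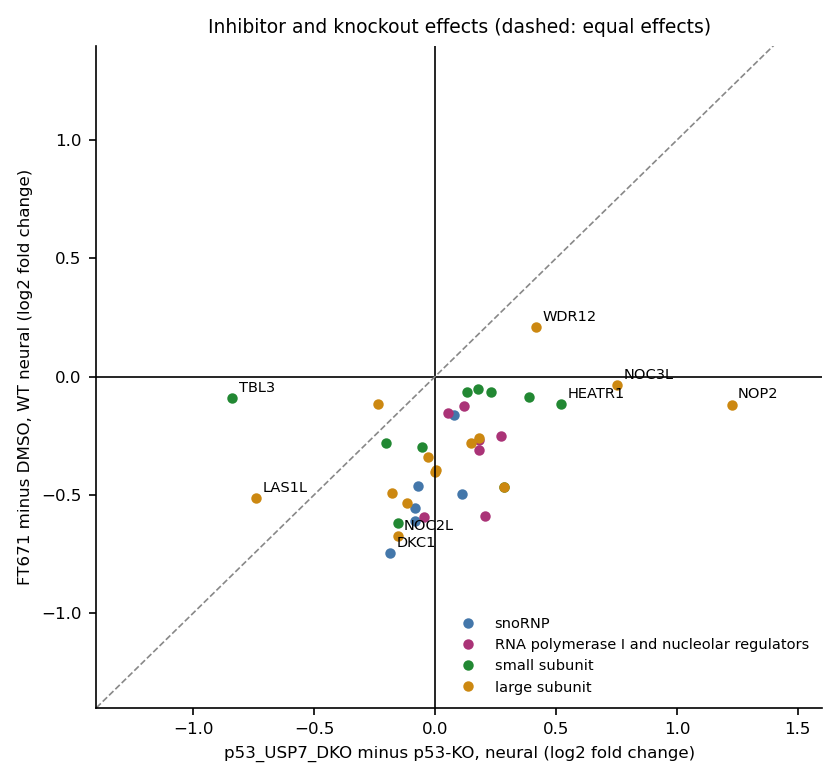
Log2 fold change of each of the 37 genes in neural cells with USP7 loss (p53_USP7_DKO minus p53-KO, horizontal axis) and with FT671 (FT671 minus DMSO in WT cells, vertical axis), coloured by role; the dashed line marks equal effects. Most points lie below that line and below 0 on the vertical axis; NOP2 lies far to the right and TBL3 and LAS1L to the left.

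Heterozygous loss of USP7 gave small differences. In both states the share of the 37 genes called was near that of all genes, counting both directions. In neural cells 7 of 37 genes fell and none rose, where 21.3% of all genes were called and 11.7% fell, with a median of -0.07. RRS1 had 392 and 399.5 normalized counts in neural SHY USP7-het cells, against 494 and 462 in neural SHY WT cells (log2 -0.27 ± 0.06), and DDX21 had 4014 and 4217 normalized counts in SHY USP7-het, against 4678 and 4794 in SHY WT cells (log2 -0.20 ± 0.04). RRS1 brings a small ribosomal RNA particle into the large subunit. At unadjusted p below 0.05, 11 differed, and DESeq2 called 3. In undifferentiated cells 10 fell and none rose, where 25.4% of all genes were called and 14.1% fell, with a median of -0.11. DDX10 had 935 and 891 normalized counts in undifferentiated SHY USP7-het cells, against 1080.3 and 1063 in undifferentiated SHY WT cells (log2 -0.23 ± 0.06), and PES1 had 4097 and 3626 normalized counts in SHY USP7-het, against 4466 and 4328 in SHY WT cells (log2 -0.19 ± 0.05). The groups did not overlap in these 4 genes, but with 1 library left out 2 to 7 genes were called in undifferentiated and 3 to 6 in neural cells. At unadjusted p below 0.05, 16 differed in undifferentiated cells, and DESeq2 called 6. NOP2 was lower in the undifferentiated heterozygote (log2 -0.19 ± 0.05), and TBL3 stood at -0.12 ± 0.06 there and 0.11 ± 0.06 in the neural state, neither called. The effect of differentiation differed for FBL (0.34 ± 0.09) and RRP1B (0.20 ± 0.07), both higher in SHY USP7-het, where 16.2% of all genes were called, 8.76% higher and 7.44% lower. MYC had 33.9 and 32.9 normalized counts in neural SHY USP7-het, against 82.8 and 90.0 in neural SHY WT cells, and 886 and 982 in undifferentiated SHY USP7-het, against 1205 and 1218 in undifferentiated SHY WT cells. The MYC family list took 0.00863% to 0.00895% of reads in neural SHY USP7-het, against 0.00872% to 0.00923% in neural SHY WT cells. In undifferentiated cells it took 0.01304% to 0.01313% in SHY USP7-het, against 0.01346% to 0.01393% in SHY WT cells. The fibroblast and endothelium list (8 of 12 measured here) took 0.391% to 0.399% in neural SHY USP7-het, against 0.247% to 0.262% in neural SHY WT cells, and 0.110% to 0.115% in undifferentiated SHY USP7-het, against 0.0926% to 0.0951% in undifferentiated SHY WT cells. The part of these measures in the differences was not tested. Of the 126 other pathway genes 9 fell and 3 rose in neural cells, and 28 fell and 4 rose in undifferentiated cells.

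Across the 10 groups of the first experiment the genes varied to different degrees. The ratio of the highest to the lowest group mean was 1.76 for POLR1A and 4.72 for LYAR, with a median of 2.42, while the coefficient of variation within a group had a median of 4.28% over the genes. The highest mean lay in undifferentiated WT cells for 31 of 37 genes and the lowest in FT671-treated neural WT cells for 29. NOP2 was one of the exceptions, with its highest mean in neural p53_BCOR_DKO cells (3860.1 ± 123 normalized counts) and its lowest with FT671 (1064 ± 53.8), a ratio of 3.63.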

How the data were processed

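The sources were 38 libraries of polyadenylated RNA from SH-SY5Y cells. Per the submitters' processing notes, STAR, HTSeq, DESeq2 and the genome build hg19 were used, with no versions given. The values show how the deposited signal was made: the read count over the size factor of the library, plus 1. With the 1 taken off, 100% of values in all 38 columns are whole multiples of 1 step a library (tolerance 0.01 reads), so read counts could be recovered. Depth was 16149022 to 17946790 reads, which together with the number of libraries sets the precision. Another 6 value columns match no sample and stayed out. In the heterozygote experiment, columns could be matched to groups but not to single samples.

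Levels are the deposited values less 1. The fit used log2(level + 1) for the 15351 and 14820 genes with a mean level of 5 or more, in limma 3.58.1 (trend and robust) under R 4.3.3, with 1 model per experiment and Benjamini-Hochberg adjustment over all its genes. Calls are adjusted p-values below 0.05, and "rose" and "fell" are used of called genes, with ± for the SE of a log2 fold change. Fold changes of genes with few reads are understated on this scale. The planned test was limma if the files held normalized values and edgeR if they held counts, so limma was used. edgeR 4.0.16 (TMM factors) and DESeq2 1.42.0 ran on recovered reads as alternatives, and for WT differentiation edgeR called 5132 genes up and 4932 down. The other alternatives were adding 0.5 or 5 in place of 1, dropping the filter, TMM rescaling, only the groups compared, a replicate block and each library left out. Fits without the third undifferentiated p53-KO and p53_USP7_DKO libraries, the neighbour check and the exon overlaps were chosen after seeing the data.

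Members and lists were chosen with earlier results of these data known. All members may be named. Values are given for at most the 8 largest called changes per direction, and other pathway genes for at most the 3 largest per direction. Promoters are from RefSeq GRCh38.p14 and exons from GENCODE v29, neither of the build used for counting, so no other coordinates are given. Results of some single genes, the p53 transcript among them, are not reported here. Whether equal replicate numbers pair libraries was tested by correlating their departures from the group mean. Of 135 same-numbered pairs, 15 had a correlation above 0.1. In 1 of 45 group pairs all 3 did, p53_USP7_DKO against p53-KO undifferentiated (0.273, 0.224 and 0.36). Those libraries may be paired. In both groups library 3 lies apart from the others, which moves libraries 1 and 2 to the other side of the group mean. An outlier in both groups can give all 3 correlations, so they cannot show a pairing. On simulated data over 15351 genes, the fit of WT differentiation recovered 15, 42, 50 and 50 of 50 genes at the 4 simulated fold changes, which ended at 2- and 4-fold, with 12 of 169 calls false. The fit of SHY WT differentiation recovered 32, 43, 50 and 50 of 50 over 14820 genes, with 12 of 187 calls false.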

Additional observations from a re-analysis of the deposited data

Results flagged for a closer look

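The effect of neural differentiation was tested for a difference between genotypes with an interaction term in limma, and the genes listed are those whose effects differed. Between p53_BCOR_DKO and p53-KO cells 36 of 37 genes differed, where 63.8% of all genes did, led by GNL3 (1.53 on the log2 scale), UTP20 (1.44) and RRP1B (1.4). All 36 effects were higher in p53_BCOR_DKO. Between p53_USP7_DKO and p53-KO cells 20 differed, where 42.1% of all genes did, led by NOP2 (0.87), NOP14 (0.81) and RRP1B (0.73), all higher in p53_USP7_DKO. Between p53-KO and WT cells 2 differed, where 18.1% of all genes did, RRP12 (0.43) and TBL3 (0.42), both higher in p53-KO. TBL3 was not called without library 3 of undifferentiated p53-KO cells (0.34) or library 1 of neural p53-KO cells (0.37). Between SHY USP7-het and SHY WT cells 2 differed, where 16.2% of all genes did, FBL (0.34) and RRP1B (0.2), both higher in SHY USP7-het. FBL lost its call without SHY WT undifferentiated library 1 (0.32), SHY WT neural library 2 (0.22) or SHY USP7-het neural library 1 (0.28). RRP1B kept its call only when SHY USP7-het neural library 2 was the one left out, and lost it with DESeq2 and with TMM rescaling. The counts of 2 of 37 lie below the share of all genes.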

How the results depend on the processing

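Over 514 called values of the 37 genes and their alternatives, 7124 of 7480 kept direction and call, 356 kept direction but lost the call, and 0 reversed. With only the groups compared in the fit, called genes numbered 24 for p53 loss in neural cells, 12 and 22 for USP7 loss in undifferentiated and neural cells, 15 for USP7 against BCOR loss in undifferentiated cells, 6 for vehicle, and 6 and 12 for the p53 and USP7 interactions. In the same order, these fits called 43%, 31.5%, 71.9%, 42.5%, 24.1%, 25.2% and 30% of all genes. The USP7 interaction gave 31 without the last undifferentiated library of p53_USP7_DKO and of p53-KO. DESeq2 called 6, 3 and 1 for heterozygosity in undifferentiated cells, in neural cells and for its interaction, and TMM rescaling 1 for that interaction. With 1 library left out the counts ran from 9 to 18 (p53 loss, undifferentiated), 0 to 1 (vehicle), 1 to 3 (p53 interaction), 2 to 7 and 3 to 6 (heterozygosity, undifferentiated and neural) and 0 to 2 (its interaction). In the heterozygote experiment a left-out library leaves a lone one, which is assumed to vary like the other groups. The replicate block gave 22 calls for USP7 loss in undifferentiated cells, against 22 without it, moved no other count by over 1.5 times, and ended 1 call of a single gene, that of LYAR in the USP7 interaction. The block fits a replicate effect shared by all groups of the first experiment. It does not model a possible pairing of undifferentiated p53_USP7_DKO and p53-KO libraries alone, so it cannot show what such a pairing would change. The main fit leaves such a pairing out. For the heterozygote experiment no paired analysis was possible because its columns carry other replicate numbers than the titles. The cause of these changes was not tested. Small changes could be missed: at the smallest simulated fold 15 of 50 genes were recovered in the first and 32 of 50 in the heterozygote experiment.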
